A study of Mus musculus with 24 samples.

Results

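The 37 genes of the mouse mitochondrial genome were followed in oocytes and embryos that lack Nlrp14 and in their wild-type counterparts. They were taken as all genes whose symbol starts with mt-, and comprise 13 mRNA genes, 2 ribosomal RNA genes and 22 transfer RNA genes, out of 55487 gene identifiers measured. RNA sequencing covered 8 groups of 3 libraries each, all from Mus musculus: Nlrp14 knockout (KO) and wild-type (WT) germinal vesicle (GV) oocytes, KO and WT metaphase II (MII) oocytes, KO and WT zygotes at the late pronuclear stage PN5, and KO and WT 2-cell embryos. Each library was made from 5 oocytes or embryos with the SMART-Seq HT kit, which copies RNA into cDNA by template switching and amplifies it by PCR. The labels call the 3 libraries of a group biological replicates but give neither the animals behind them nor strain, age or the design of the knockout allele, so that p-values reflect only how far these libraries spread. NLRP14, of the NLR family, is made in oocytes, and the series compared gene expression profiles of the 2 genotypes at the 4 stages.

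Mitochondrial DNA is a small circular genome, present in many copies in an oocyte, and embryos inherit it from the oocyte alone. Both of its strands are transcribed by the polymerase POLRMT into long RNAs, from which the mRNAs, rRNAs and tRNAs are cut, mostly at the tRNAs that lie between them. The mRNAs encode subunits of respiratory complexes I (mt-Nd1 to mt-Nd6 and mt-Nd4l), III (mt-Cytb) and IV (mt-Co1 to mt-Co3) and of ATP synthase, complex V (mt-Atp6 and mt-Atp8). mt-Rnr1 and mt-Rnr2 are the small and large ribosomal RNAs of the organelle, and the tRNAs serve translation inside it. Nuclear genes supply the other subunits of these complexes and all factors that copy, transcribe and process the genome.

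In the annotation (GENCODE M21 on GRCm38) 28 of the 37 genes read from the plus strand of chrM and 9 from the minus strand, namely mt-Nd6 and 8 tRNAs. The genes are packed so closely that mt-Atp8 and mt-Atp6 overlap by 43 nt, mt-Nd4l and mt-Nd4 by 7 nt, and mt-Nd5 and mt-Nd6, on opposite strands, by 14 nt. The labels do not say whether fragments were counted by strand, so mt-Nd6 and the 8 tRNAs of the minus strand cannot be told apart from RNA antisense to them. The gene ends differ too. Of the 13 mRNAs, 10 end in a full stop codon and 3 (mt-Co3, mt-Nd4 and mt-Cytb) end in a lone T, which is known to become a stop codon when a poly(A) tail is added. The last 30 bases of 6 mRNA genes that the results turn on are shown 5′ to 3′ on the coding strand, with the stop codon or its lone T in capitals.
mt-Nd1, chrM:3678-3707, plus strand: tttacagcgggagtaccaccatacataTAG
mt-Atp6, chrM:8578-8607, plus strand: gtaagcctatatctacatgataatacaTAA
mt-Co3, chrM:9361-9390, plus strand: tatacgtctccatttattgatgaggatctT
mt-Nd4, chrM:11515-11544, plus strand: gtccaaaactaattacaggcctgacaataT
mt-Nd6, chrM:13552-13581, minus strand: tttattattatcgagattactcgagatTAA
mt-Cytb, chrM:15259-15288, plus strand: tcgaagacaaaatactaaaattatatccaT

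The tRNA genes are 59 to 75 nt long, which is short beside a sequencing fragment. The 2 with the highest mean level are shown whole with the anticodon in capitals, because their positions bear on what a fragment there can stand for. mt-Tl1, a leucine tRNA, lies directly between mt-Rnr2, which ends at 2675, and mt-Nd1, which starts at 2751. mt-Tm, the methionine tRNA, ends at 3913, directly before mt-Nd2, which starts at 3914. A fragment assigned to either can come from a mature tRNA or from longer RNA that still holds it, and these values do not tell them apart.
mt-Tl1, chrM:2676-2750, plus strand: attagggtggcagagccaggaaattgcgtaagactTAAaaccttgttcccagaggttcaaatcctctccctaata
mt-Tm, chrM:3845-3913, plus strand: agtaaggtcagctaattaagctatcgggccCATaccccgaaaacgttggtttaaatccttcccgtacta

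Values are the deposited FPKM, fragments scaled to gene length and to library size. From the steps in which FPKM falls, 7.65 to 12.3 M fragments (M, 1e6) stood behind each library, and for 697 of the 697 member values of up to 10000 fragments the implied number was within 0.05 of whole. Nlrp14 lay between 5.75 and 39.2 FPKM in KO libraries of the 4 stages and between 90.2 and 2014 FPKM in WT libraries. All 12 oocyte markers reached 1 FPKM in each of the 8 groups. They summed to 18512 to 25442 FPKM in KO and 5983 to 7861 FPKM in WT 2-cell embryos, where 8 passed as higher and 1 as lower in KO, and to 19013 to 26439 FPKM in KO and 16863 to 17275 FPKM in WT MII oocytes. Of 7 blood markers, Hba-a1 and Hba-a2 reached 1 FPKM, in 2-cell embryos alone, where the list summed to 16.7 to 26.2 FPKM in KO and 60.9 to 104 FPKM in WT libraries. The 18 granulosa and cumulus cell markers summed to 10.9 to 13.9 FPKM in KO and 34.5 to 51.6 FPKM in WT 2-cell embryos, and to 12.8 to 29.4 FPKM at the other stages, with 1 to 10 markers per group at 0 in every library. Of 5 tested in 2-cell embryos, 3 (Tnfaip6, Nr5a2 and Amhr2) passed as lower in KO and 1 (Cyp19a1) as higher. Among all tested genes 40.3% were called lower and 14% higher there. Amh, Fshr and Inha were at 0 in every 2-cell library. The part of these markers in the results was not tested. The 10 sperm markers summed to at most 13.5 FPKM, and in 2-cell embryos to 4.37 to 6.78 FPKM in KO and 3.48 to 3.79 FPKM in WT. In these bulk samples fewer mitochondrial transcripts per cell and more RNA from the nuclear genome cannot be told apart. Nor can the amount of an RNA and how readily the kit copies it, which may depend on its poly(A) tail. The part of this in the levels, between stages, genotypes or kinds of RNA, was not tested.

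Part of the level of 7 members is uncertain because of a nuclear copy of mitochondrial DNA. On GRCm38 chromosome 1, between positions 24611535 and 24616197, 7 annotated genes are 99.7 to 100% identical to stretches of mt-Nd4, mt-Nd4l, mt-Nd3, mt-Co3, mt-Atp6, mt-Co2 and mt-Co1. Gm10925, the copy of mt-Atp6, held 95.7 to 101 fragments per 100 fragments of mt-Atp6 across the 24 libraries. Gm28437, the copy of mt-Co3, held 93.7 to 100.2 per 100, and Gm28439, which covers 63.6% of mt-Nd4, held 24.4 to 31.4 per 100. How the authors' counting divided fragments between near-identical sequences is not given in the sources used here. Levels of these 7 genes are therefore no measure of their rank against mt-Nd1, mt-Nd2, mt-Nd5, mt-Nd6 and mt-Cytb, which had no copy at this identity. mt-Atp8 lies between mt-Co2 and mt-Atp6 and may be affected too, although no copy of it was annotated. Adding each copy to its member gave 0, 2, 1 and 5 called members for KO against WT from GV to 2-cell, the same counts as without the copies. Since each copy rose and fell with its member, adding it could change the differences little. The equal counts therefore do not show that the calls are free of the copies.

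Mitochondrial transcripts took a larger share of the libraries in 2-cell embryos than in GV oocytes in both genotypes. The 13 mRNAs held 0.757 ± 0.343% of fragments in KO and 0.738 ± 0.0472% in WT GV oocytes (mean ± SD, n = 3 libraries in each group). In MII oocytes they held 2.73 ± 0.332% in KO and 1.72 ± 0.174% in WT. In PN5 zygotes they held 2.70 ± 0.384% in KO and 4.86 ± 3.46% in WT, and in 2-cell embryos 9.78 ± 0.446% in KO and 11.3 ± 2.86% in WT. The mRNAs held most of the signal, since the 2 rRNAs took at most 0.776% of a library and the 22 tRNAs at most 0.0553%. These shares leave out fragments assigned to the nuclear copies, which were 0.198% of KO GV replicate 1, the lowest, and 4.19% of WT 2-cell replicate 3, the highest. By library, the mRNA shares were 2.42, 3.08 and 2.67% in KO and 1.55, 1.90 and 1.71% in WT MII oocytes, with no overlap. At the other stages the genotypes overlapped and 1 library stood apart. KO GV replicate 3 was at 1.15% beside 0.542 and 0.576%, and WT PN5 replicate 1 was at 8.78% beside 3.61 and 2.20%. WT 2-cell replicate 3 was at 14.5% beside 9.98 and 9.27%. Their summed FPKM was also the highest of each group. It was 456463 beside 372963 and 377823 (KO GV), 462297 beside 369873 and 322159 (WT PN5), and 534727 beside 469542 and 444357 (WT 2-cell). Each had the fewest genes at 1 FPKM or more in its group, at 10379, 8729 and 14128 in the same order. The part of this in the results was not tested. Results that rest on these libraries are given with and without them.

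**Figure D1:**
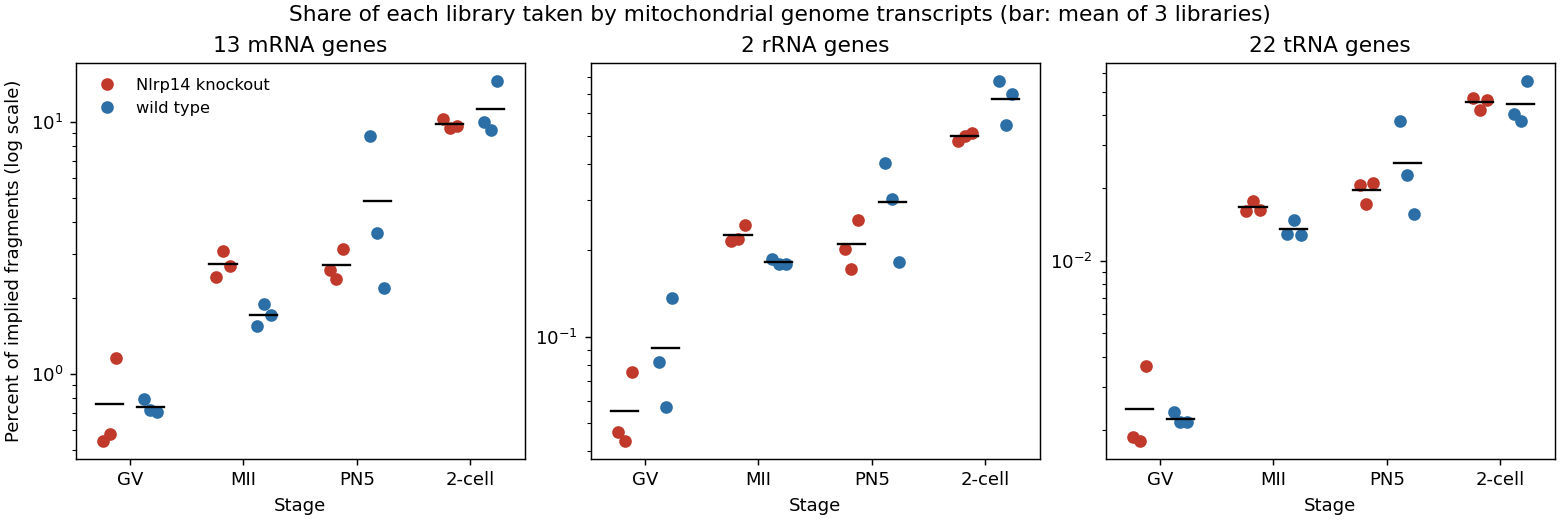
Percent of implied fragments in each library (log scale) taken by the 13 mRNA, 2 rRNA and 22 tRNA genes of the mitochondrial genome, by stage; each point is 1 library and each bar the mean of 3. The mRNA share is near 0.7% in GV oocytes and near 10% in 2-cell embryos, KO lies above WT in all MII libraries, and WT PN5 replicate 1 lies at 8.78%.

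Among the mRNAs, mt-Atp6 and mt-Cytb were the highest per length in all 8 groups as deposited, whereas with the copies added mt-Co3 stood above mt-Cytb in GV oocytes. mt-Cytb averaged 1609.5 ± 719 FPKM in KO and 1521 ± 88.5 FPKM in WT GV oocytes, and 22521 ± 1204 FPKM in KO and 29079 ± 6801 FPKM in WT 2-cell embryos. mt-Atp6 averaged 1727 ± 771 FPKM in KO and 1652 ± 156 FPKM in WT GV oocytes, and 20798 ± 967 FPKM in KO and 24145 ± 6409 FPKM in WT 2-cell embryos. The means of this pair differed by less than the larger of their SDs except in KO PN5 zygotes, where mt-Atp6 was higher, and KO 2-cell embryos, where mt-Cytb was higher, and mt-Atp6 carries the uncertainty of its copy. The lowest mRNA was mt-Nd4l in GV oocytes and mt-Nd6 in 2-cell embryos, with or without the copies. In MII oocytes and PN5 zygotes it was mt-Nd4l or mt-Nd3 as deposited and mt-Nd6 with the copies added. mt-Nd6, the single mRNA of the minus strand, encodes a membrane subunit of complex I and averaged 722 ± 18.1 FPKM in KO and 1149 ± 277 FPKM in WT 2-cell embryos. The rRNA mt-Rnr1 was lower still there, at 587 ± 51.9 FPKM in KO and 1007 ± 247 FPKM in WT. Ribosomal RNA is the bulk of mitochondrial RNA in a cell, and in these libraries both rRNAs together had 4.68 to 19.4 fragments per 100 mRNA fragments.

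The tRNA genes covered a wide range of levels. mt-Tl1 had the highest mean over the 8 groups, 1313 FPKM, followed by mt-Tm at 308.6 and mt-Ti, the isoleucine tRNA, at 171 FPKM, and mt-Ts2 and mt-Tf were the lowest at 3.58 and 4.40 FPKM. The median tRNA gene had 6 fragments in KO and 7 in WT GV oocytes, 37 in KO and 41 in WT MII oocytes, 45 in KO and 51 in WT PN5 zygotes, and 62 in KO and 68 in WT 2-cell embryos. mt-Ts2 had 1 fragment in most libraries, so its values carry almost no information.

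Nearly all members were higher in MII than in GV oocytes, a step in which the grown oocyte resumes meiosis with its nuclear genome largely silent. limma, fitted on log2(FPKM + 1) with p-values adjusted over all genes tested, called a gene when its adjusted p was under 0.05. In KO oocytes 36 of 37 members were higher at MII than at GV and none was called lower, where 69% of all 10757 tested genes were called, 20.8% higher and 48.2% lower. In WT oocytes 36 of 37 were higher, where 84% of all 11610 tested genes were called, 31.1% higher and 52.8% lower. The uncalled member was mt-Ts2 in both genotypes, with 1 to 4 fragments in each of these 12 libraries. Some called tRNAs also rest on few fragments. mt-Tf had 0 to 1 fragments in GV and 2 to 4 in MII libraries. In GV oocytes 17 tRNAs in KO and 18 in WT had at most 20 fragments in every library.

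The size of the GV-to-MII change differed widely between members of the same genome. The median log2 difference of the mRNAs was 1.98 in KO and 1.33 in WT oocytes, against medians of all tested genes of -0.61 in KO and -0.50 in WT. mt-Nd4l was the mRNA with the largest change, log2 2.71 (SE 0.25) in KO and 2.08 (SE 0.15) in WT, at 276 ± 9.98 FPKM in KO and 198 ± 44.1 FPKM in WT MII oocytes. mt-Co3, a core subunit of cytochrome c oxidase, had the smallest, log2 1.07 (SE 0.30, adjusted p = 0.0134) in KO and 0.30 (SE 0.12, adjusted p = 0.0413) in WT by limma. Its share of the summed mitochondrial mRNA FPKM was 12.9 ± 0.711% in KO and 13.4 ± 0.724% in WT GV oocytes, 7.22 ± 0.575% in KO and 7.15 ± 0.185% in WT MII oocytes, and 5.13 ± 0.388% in KO and 5.14 ± 0.467% in WT 2-cell embryos. mt-Nd1 took the opposite course, with 9.29 ± 0.149% in KO and 9.15 ± 0.516% in WT GV oocytes and 15.6 ± 0.347% in KO and 13.4 ± 0.805% in WT 2-cell embryos. These shares leave out the nuclear copies, and mt-Co3 has such a copy while mt-Nd1 has none at the identity given above. The tRNA mt-Tl1 had 898, 1091 and 969.6 FPKM in KO MII oocytes, against 54.9, 57.0 and 127 FPKM in KO GV oocytes. In WT it had 710.4, 783 and 666 FPKM at MII, against 77.1, 72.8 and 70.1 FPKM at GV. Its difference was log2 3.72 (SE 0.34) in KO and 3.28 (SE 0.08) in WT, above that of its neighbours mt-Nd1 (2.25 in KO, 1.57 in WT) and mt-Rnr2 (2.16 in KO, 1.06 in WT).

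From MII to PN5, across fertilization, the members moved little in KO and by a wide, uncertain margin in WT. In KO zygotes 6 of 37 passed, where 32.8% of all 8986 tested genes were called, 22.5% higher and 10.4% lower: mt-Td, mt-Tl2, mt-Tm, mt-Tr and mt-Tt were higher at PN5 and mt-Co3 was lower. In WT zygotes none of 37 passed by limma, where 14.2% of all 9375 tested genes were called, 9.8% as higher, and 19 members had an unadjusted p under 0.05. The median log2 difference of the mRNAs was 0.10 in KO and 1.19 in WT. That WT median rests on a group whose libraries lay far apart, and without WT PN5 replicate 3, the lowest, 24 members passed, where 30% of all tested genes were called, whereas without replicate 1, the highest, 5 passed, where 19.3% were called. mt-Cytb, for example, had 5524, 5244 and 6602 FPKM in KO PN5 zygotes, against 4604, 6219.9 and 5345 FPKM in KO MII oocytes. In WT it had 21168, 8143 and 4823 FPKM in PN5 zygotes, against 3252, 3864 and 3626 FPKM in MII oocytes, so that every WT zygote library lay above every WT MII library while the KO groups overlapped. No interaction of genotype with this change passed for any member (limma, 0 of 37, where 7.45% of all 10190 tested genes were called, 4.59% as lower), although 19 had an unadjusted p under 0.05, 10 of them mRNAs with a lower value in KO. Without WT PN5 replicate 3 there were 22 members with a called interaction, where 41.4% of all tested genes were called.

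From PN5 to the 2-cell embryo, the time of the main wave of embryonic genome activation in the mouse, the mitochondrial transcripts were higher again. In KO 35 of 37 passed, all higher at the 2-cell stage, where 70.6% of all 11450 tested genes were called, 43.8% higher. In WT 19 of 37 passed, all higher, where 62.8% of all 13398 tested genes were called, 48% higher and 14.8% lower. With a library left out this WT count ran from 9 to 29. The median log2 difference of the mRNAs was 1.78 in KO and 1.35 in WT, against medians of all tested genes of 0.31 and 0.70. mt-Te, a glutamate tRNA, and mt-Ts2 passed in neither genotype. mt-Nd1, a membrane subunit of complex I, had 16997, 14918 and 15646 FPKM in KO 2-cell embryos, against 2867, 2713 and 3751 FPKM in KO PN5 zygotes (log2 2.36, SE 0.13). In WT it had 14762, 12668 and 19147 FPKM in 2-cell embryos, against 11590.4, 4683 and 2932 FPKM in PN5 zygotes (adjusted p = 0.0251 by limma). The difference between the 2 genotypes in this step did not pass (limma interaction log2 0.87, SE 0.54, adjusted p = 0.206). Among all 37 members the single called interaction, where 45.8% of all 14986 tested genes were called, 31.9% as lower, was that of mt-Tl2 at log2 -0.98 (SE 0.36, adjusted p = 0.0401). After a linear trend on gene length was removed from each library, 12 members were called higher and 17 lower in KO 2-cell embryos against KO PN5 zygotes, where 45.2% of all tested genes were called higher and 23.2% lower, so the direction of many members in this step depends on that choice.

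**Figure D2:**
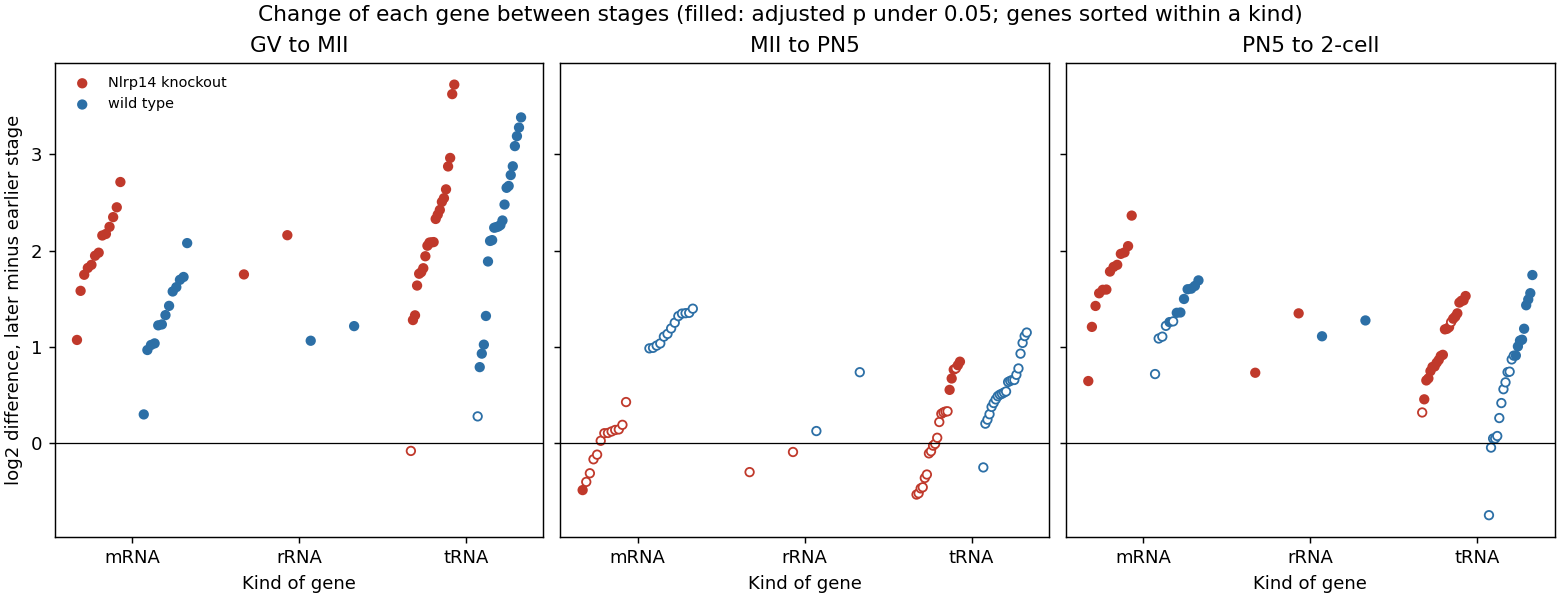
log2 difference of each member between successive stages, later minus earlier, in KO and WT; each point is 1 gene, sorted within its kind, and filled points had an adjusted p under 0.05. From GV to MII 36 of 37 points are filled in each genotype, from MII to PN5 none is filled in WT, and from PN5 to 2-cell 35 are filled in KO and 19 in WT.

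Between genotypes the GV oocytes gave no call. None of the 37 members passed in KO against WT (limma, where 0.043% of all 11635 tested genes were called, 0.00859% higher and 0.0344% lower), and 1 had an unadjusted p under 0.05. The median log2 difference of the mRNAs was -0.04, beside -0.08 for all tested genes. mt-Cytb had 1157, 1232 and 2439 FPKM in KO GV oocytes, against 1609.5, 1520.2 and 1433 FPKM in WT. mt-Co1, the catalytic subunit of cytochrome c oxidase, had 526, 587 and 1199 FPKM in KO, against 811, 724 and 822 FPKM in WT. mt-Atp6, the proton channel subunit of ATP synthase, had 1222, 1343 and 2615 FPKM in KO, against 1815, 1636 and 1504 FPKM in WT. In each of these the WT libraries were close together, 2 KO libraries were below all of them and KO replicate 3 was above. The same split held for mt-Nd1, with 549, 563 and 1128 FPKM in KO and 727, 704 and 708 FPKM in WT, for mt-Nd4, with 229, 247 and 501 FPKM in KO and 348, 302 and 294 FPKM in WT, and for mt-Nd6, with 123, 139 and 297 FPKM in KO and 185, 160.0 and 166 FPKM in WT. Without KO GV replicate 3, all 13 mRNAs had lower estimates in KO, from log2 -0.54 to -0.32, and 10 members passed as lower and 1 as higher, where 8.97% of all tested genes were called, 5.43% as lower. The GV result thus depends on that library.

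The rRNAs of GV oocytes lay lower in KO by estimate. mt-Rnr2 had 228, 207 and 376 FPKM in KO and 386, 268 and 758 FPKM in WT, with overlap (log2 -0.71, SE 0.41, adjusted p = 0.558 by limma). mt-Rnr1 had 112, 113 and 164 FPKM in KO and 215, 155 and 174 FPKM in WT (log2 -0.48, SE 0.21, adjusted p = 0.434). Among the tRNAs, mt-Tr and mt-Tt lay above WT in all KO libraries without passing, where 8.14% of all tested genes were placed that way and 14.8% lay below. At this stage 17 of 22 tRNAs in KO and 18 in WT had at most 20 fragments in every library, so the tRNA values of GV oocytes are coarse.

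In MII oocytes the mitochondrial mRNAs lay higher in KO. All 13 had all 3 KO libraries above all 3 WT libraries, where 8.35% of all 8739 tested genes were placed that way, and all 13 had an unadjusted p under 0.05. The estimates ran from log2 0.43 for mt-Nd3 to 0.79 for mt-Nd4 with a median of 0.65, beside a median of -0.18 for all tested genes. Over all genes, 2 of them passed limma as higher and none as lower, where 2.28% of tested genes were called, 0.32% as higher and 1.96% as lower. mt-Nd4, a proton-pumping membrane subunit of complex I, had 1573, 1783 and 1653 FPKM in KO, against 813, 1099.8 and 1011 FPKM in WT (log2 0.79, SE 0.15, adjusted p = 0.0407). mt-Nd1, which helps form the quinone site of complex I, had 3219, 3497 and 3311 FPKM in KO, against 2001, 2367 and 2028 FPKM in WT (log2 0.65, SE 0.12, adjusted p = 0.0414). The lowest KO library exceeded the highest WT library in both. The KO MII libraries also had 7946 to 8348 genes at 1 FPKM or more, against 8756 to 8974 in WT, and a summed FPKM of 319979 to 378136, against 306296 to 310410 in WT, and the part of this in the result was not tested. The remaining mRNAs missed the threshold with adjusted p of 0.0566 to 0.12. mt-Nd6, from the opposite strand, had 538, 531 and 484 FPKM in KO, against 327, 375 and 338 FPKM in WT (log2 0.58, SE 0.13, adjusted p = 0.0566 by limma). mt-Co1 had 2139, 3153 and 2585 FPKM in KO, against 1349, 1769 and 1516 FPKM in WT (log2 0.76, SE 0.18). mt-Cytb, given above by library, had log2 0.58 (SE 0.15), and mt-Atp6 had 5087, 7737 and 6243 FPKM in KO, against 3539, 4179 and 3849 FPKM in WT (log2 0.70, SE 0.17). All of these lay without overlap.

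The 2 calls at MII depend on single libraries and on settings. All 13 mRNAs had positive estimates under each of the 17 alternatives run, from log2 0.23 to 0.95. Most of these alternatives could not have changed the sign. Leaving out a library cannot reverse groups that do not overlap, and several settings change the p-values but not the estimates. Both calls were lost without any one of the WT libraries or without KO replicate 2 or 3, and without KO replicate 1, 17 members passed as higher, 12 of them mRNAs, where 8.86% of all tested genes were called higher. The median of the 13 mRNAs stayed between 0.48 and 0.82 over 3 rescalings of the libraries, in which the median of all tested genes lay between -0.37 and -0.04. The GV-to-MII interaction, which asks whether the change in KO differs from that in WT, passed for none of 37 members (0.12% of all 12478 tested genes were called, 0.0481% higher and 0.0721% lower), with a median of 0.67 for the mRNAs and 7 members at an unadjusted p under 0.05. It uses KO GV replicate 3, without which 9 passed, where 0.982% of all tested genes were called.

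The 2 rRNAs differed from each other at MII. mt-Rnr1, the small-subunit rRNA, had 454, 389.8 and 459.6 FPKM in KO and 457, 397 and 403 FPKM in WT MII oocytes, with overlap (log2 0.05, SE 0.14, adjusted p = 0.82 by limma). mt-Rnr2, the large-subunit rRNA, had 1089.5, 1151 and 1268 FPKM in KO and 905, 891 and 892 FPKM in WT, without overlap (log2 0.38, SE 0.12, adjusted p = 0.102). The tRNAs were mixed, with a median of 0.03 and 12 positive and 10 negative estimates. mt-Tl1, mt-Ti, mt-Ts1 and mt-Te lay above WT in all KO libraries, and mt-Th and mt-Tl2 below it, where 26.1% of all tested genes lay below. mt-Tm had 228, 171 and 169.9 FPKM in KO and 175, 191 and 160.4 FPKM in WT, with overlap.

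**Figure D3:**
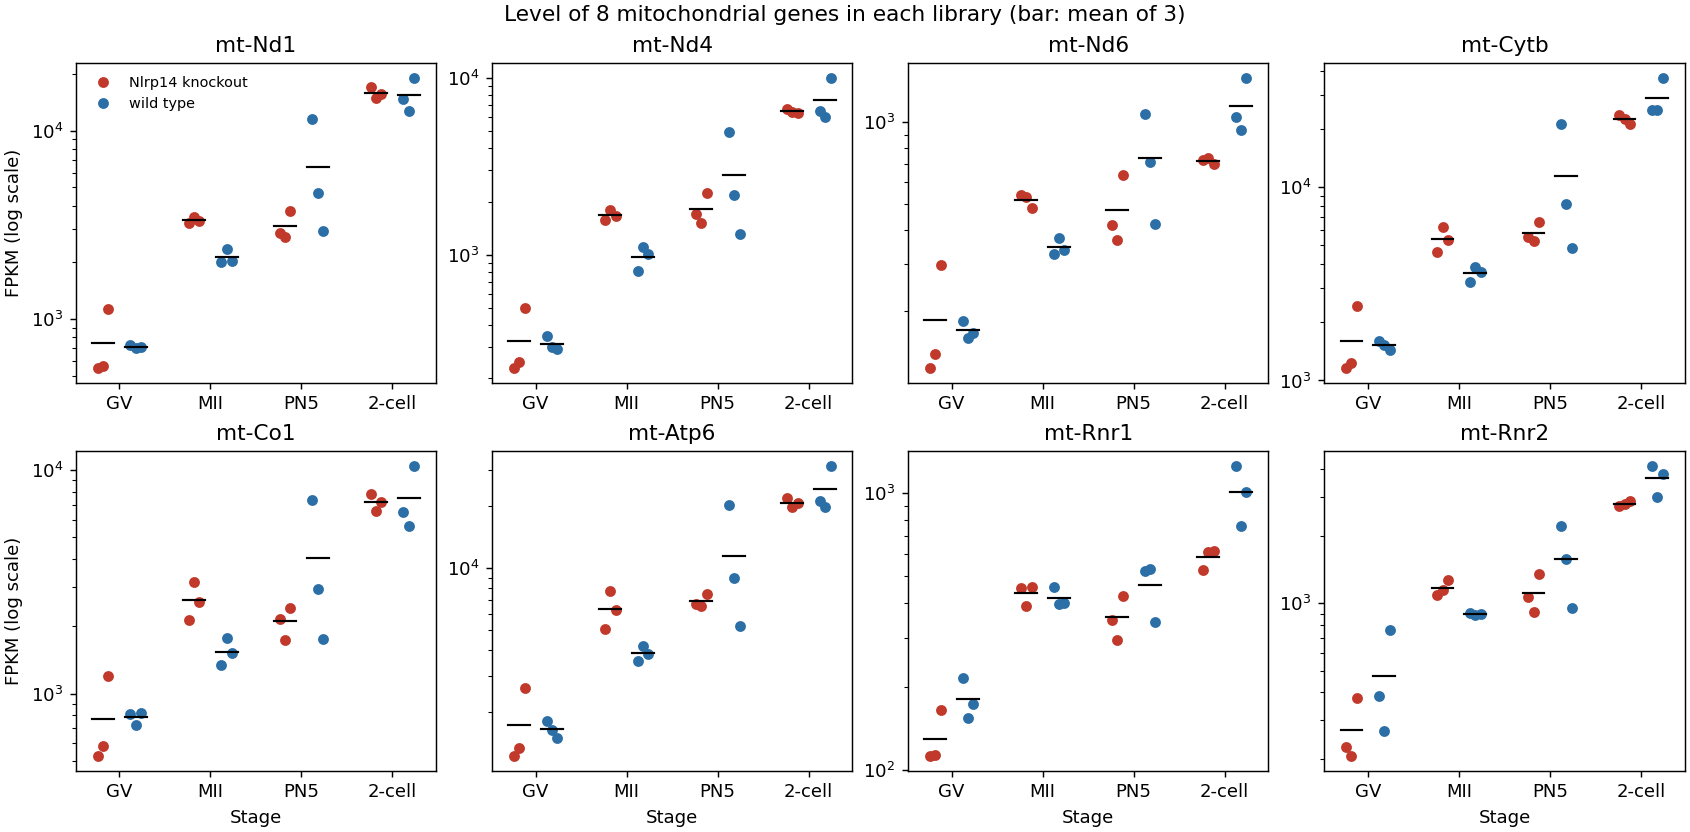
FPKM (log scale) of 8 mitochondrial genes in every library by stage, KO left of WT, with bars at the mean of 3. In MII oocytes KO lies above WT without overlap in each panel but mt-Rnr1, and in 2-cell embryos KO lies below WT without overlap for mt-Nd6, mt-Cytb, mt-Rnr1 and mt-Rnr2.

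In PN5 zygotes all 13 mRNAs had lower estimates in KO, but none passed and none separated the genotypes. The estimates ran from log2 -0.94 for mt-Co2 to -0.10 for mt-Nd4l, with a median of -0.57 beside 0.01 for all tested genes. mt-Nd1 had 2867, 2713 and 3751 FPKM in KO, against 11590.4, 4683 and 2932 FPKM in WT (log2 -0.82, SE 0.45, adjusted p = 0.248 by limma). mt-Nd4 had 1693, 1518 and 2241 FPKM in KO, against 4951, 2171 and 1309 FPKM in WT, and mt-Co1 had 2164, 1747 and 2413 FPKM in KO, against 7370.2, 2951 and 1763 FPKM in WT. In each of these genes the groups overlapped, and WT replicate 1 was the highest of the 6 libraries. mt-Atp6 had 6668, 6555 and 7492 FPKM in KO, against 20341, 8928 and 5230.3 FPKM in WT, and mt-Nd6 had 416, 367 and 641 FPKM in KO, against 1075, 711 and 421 FPKM in WT. The rRNA mt-Rnr1 had 348, 294 and 426 FPKM in KO, against 523, 532 and 342 FPKM in WT, and mt-Rnr2 had 1064, 912 and 1357 FPKM in KO, against 2221, 1583 and 949 FPKM in WT. The same WT library was the highest for 7 of the 8 genes named in the plot of levels.

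The WT spread at PN5 decides the size of this difference. Without WT replicate 1 the median of the mRNAs was -0.12 with 8 negative and 5 positive estimates, 1 member passed as higher and 1 as lower, where 5.83% of all tested genes were called lower. Without WT replicate 3 the median was -0.98 and 13 members passed as lower, 7 of them mRNAs, where 16.9% of all tested genes were called lower. With all libraries 1 member passed as lower, where 6.1% of all 9483 tested genes were called, 5.53% as lower and 0.569% as higher. It was mt-Tp, the proline tRNA at the end of the minus-strand set, with 10.5, 9.24 and 9.18 FPKM in KO and 32.1, 22.7 and 19.5 FPKM in WT, without overlap (log2 -1.25, SE 0.24, adjusted p = 0.0367 by limma). These levels rest on 8, 6 and 6 fragments in KO and 24, 14 and 14 in WT. The call of mt-Tp held under 6 of 17 alternatives, with log2 from -1.40 to -0.47 and adjusted p of up to 0.181 by limma. mt-Tp lay below WT in all KO libraries together with mt-Tf, mt-Ta, mt-Tn, mt-Tc, mt-Ty and mt-Ts1, where 24% of all tested genes were placed that way. Of these 7 tRNAs 6 are annotated on the minus strand, as are 8 of all 22. mt-Ta, mt-Tn, mt-Tc and mt-Ty among them are neighbours, between positions 5018 and 5326. Since counting by strand is not given, their fragments cannot be told apart from RNA of the opposite strand. The most abundant tRNAs overlapped between genotypes, with mt-Tl1 at 1246, 1051 and 1412 FPKM in KO and 2286, 1450.1 and 977 FPKM in WT and mt-Tm at 287, 275 and 266 FPKM in KO and 428, 219 and 159 FPKM in WT.

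In 2-cell embryos most mRNAs did not separate the genotypes, and a few members were lower in KO. The median of the 13 mRNAs was log2 -0.18, beside -0.44 for all tested genes, and 1 of the 13 passed. Over all 37 members 5 passed as lower and none as higher, where 54.3% of all 13828 tested genes were called, 40.3% as lower and 14% as higher. The called members were mt-Te, mt-Rnr1, mt-Nd6, mt-Tr and mt-Tl2.

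mt-Nd6 had 724, 739 and 703 FPKM in KO 2-cell embryos, against 1048, 937 and 1462 FPKM in WT (log2 -0.64, SE 0.20, adjusted p = 0.0231 by limma). mt-Te, the glutamate tRNA that lies directly beside mt-Nd6 on the minus strand, had 94.5, 98.6 and 116 FPKM in KO, against 172, 148 and 246 FPKM in WT (log2 -0.84, SE 0.23, adjusted p = 0.0132). mt-Rnr1 had 527, 614 and 619 FPKM in KO, against 1255, 760.4 and 1007 FPKM in WT (log2 -0.75, SE 0.21, adjusted p = 0.0161). In all 3 the highest KO library was below the lowest WT library. mt-Rnr2, from the same precursor as mt-Rnr1, had 2729, 2783 and 2866 FPKM in KO, against 4147, 2994 and 3809 FPKM in WT, also without overlap, and did not pass (log2 -0.37, SE 0.17, adjusted p = 0.0966 by limma). mt-Tl2, the second leucine tRNA, had 37.1, 28.9 and 39.4 FPKM in KO, against 55.8, 42.1 and 68.1 FPKM in WT (log2 -0.63, SE 0.23, adjusted p = 0.0498), which rest on 21, 16 and 23 fragments in KO and 33, 29 and 37 in WT. mt-Tr, the arginine tRNA, had 124, 170 and 150 FPKM in KO, against 228, 189 and 286 FPKM in WT (adjusted p = 0.0306). Neither pair of groups overlapped. mt-Cytb, the single mitochondrial subunit of complex III, had 23728, 22512 and 21321 FPKM in KO, against 25093, 25212 and 36932 FPKM in WT (log2 -0.35, SE 0.19, adjusted p = 0.15 by limma). mt-Cytb, mt-Nd3 and mt-Nd5 lay below WT in all KO libraries without passing, where 44.6% of all tested genes were placed that way.

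The genotypes overlapped at the 2-cell stage for mt-Nd1, mt-Nd4, mt-Co1 and mt-Atp6. mt-Nd1 had a difference of log2 0.05 (SE 0.18). mt-Nd4 had 6668, 6413 and 6336 FPKM in KO, against 6466, 6028 and 10028 FPKM in WT (log2 -0.18, SE 0.21). mt-Co1 had 7796, 6578 and 7237 FPKM in KO, against 6479, 5637 and 10483 FPKM in WT (log2 -0.01, SE 0.24). In both the WT libraries spanned a wider range than the KO libraries, with WT replicate 3 the highest of all 6. mt-Atp6 had 21819, 19896 and 20678 FPKM in KO, against 21204, 19734 and 31497 FPKM in WT. The tRNAs mt-Tl1, at 3305, 2689.8 and 3061 FPKM in KO and 2473, 2504 and 3478 FPKM in WT, and mt-Tm, at 776, 766 and 776 FPKM in KO and 600.3, 693 and 919 FPKM in WT, also overlapped.

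Rescaling moved the 2-cell direction of the mRNAs. After median-of-ratios rescaling, which shifts the median of all tested genes to -0.19, the median of the 13 mRNAs was 0.17. None of the 5 members was then called (limma, mt-Te adjusted p = 0.131, mt-Rnr1 0.177, mt-Nd6 0.312). mt-Tw and mt-Tt passed as higher, where 20.3% of all tested genes were called higher. With libraries set to an equal sum over genes outside the mitochondrial genome the median was -0.30. Of the 37 members 10 then passed as lower, where 42.8% of all tested genes were called lower. The median of the 13 mRNAs lay above the median of all tested genes in both rescalings and without them, while mt-Nd6 lay below that gene median in each. Without WT replicate 3, the highest mitochondrial library, mt-Te, mt-Rnr1 and mt-Nd6 passed as lower (adjusted p = 0.0312, 0.0359 and 0.0434 by limma) and mt-Tr and mt-Tl2 did not, where 48.8% of all tested genes were called. The median of the 13 mRNAs was then 0.02, with 7 positive and 6 negative estimates.

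**Figure D4:**
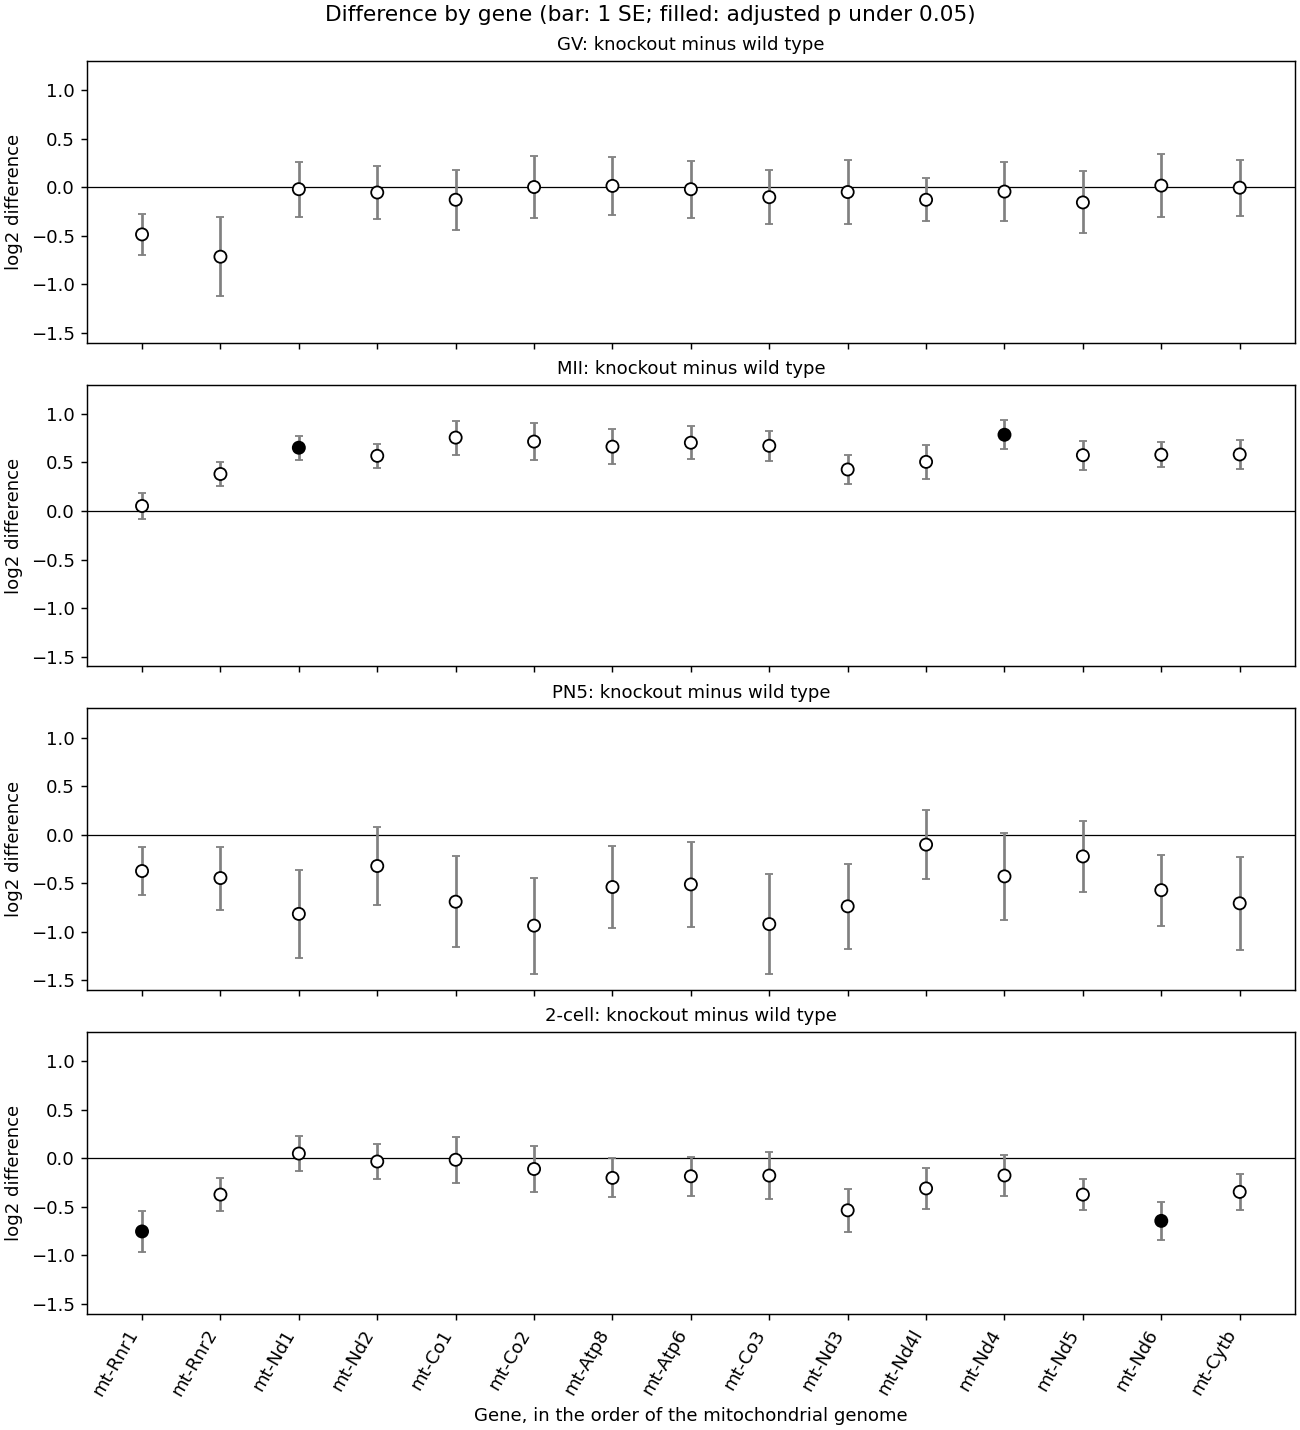
log2 difference KO minus WT of the 13 mRNAs and 2 rRNAs in the order of the mitochondrial genome, 1 panel per stage; bars are 1 SE and filled points had an adjusted p under 0.05. The mRNAs lie near 0 at GV, between 0.43 and 0.79 at MII and below 0 at PN5 with wide bars, and at 2-cell mt-Rnr1 and mt-Nd6 are filled at -0.75 and -0.64.

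Expressed against the median of the 13 mRNAs of the same library, a measure in which the scaling of libraries cancels, a few members did not overlap between genotypes, with 2 of 13 mRNAs above and 2 below in 2-cell embryos. mt-Nd6 lay log2 -3.01, -2.84 and -2.98 from that median in KO 2-cell embryos, against -2.34, -2.32 and -2.58 in WT, a mean difference of -0.53 without overlap. mt-Nd3 was lower by the same measure (-0.42), and mt-Nd1 and mt-Co1 were higher (0.16 and 0.10), all without overlap, where 33.7% of all tested genes lay below and 16.3% above, so that these counts are not above the background. mt-Rnr1 lay at -3.47, -3.11 and -3.16 in KO, against -2.08, -2.63 and -3.12 in WT, with overlap. In MII oocytes mt-Rnr1 lay at -1.79, -2.28 and -1.85 in KO, against -1.12, -1.54 and -1.44 in WT (mean difference -0.61), and mt-Rnr2 was lower by -0.28 and mt-Nd3 by -0.23, without overlap. At MII, however, 71.9% of all tested genes lay below by this measure and 0.458% above, and the mRNAs it divides by were themselves higher in KO. In GV oocytes mt-Rnr1 was again lower (-0.43, without overlap), where 5.79% of all tested genes lay below.

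At PN5 the same measure separated more mRNAs. mt-Nd4l (0.56), mt-Nd5 (0.44), mt-Nd2 (0.34), mt-Nd4 (0.24), mt-Atp6 (0.15) and mt-Atp8 (0.13) were higher in KO zygotes and mt-Co2 (-0.27) was lower, all without overlap, where 9.3% of all tested genes lay above and 2.79% below. These shares are no fair background, because the divisor comes from the members themselves, here and at the other stages. The summed mRNA FPKM was 92823, 38218 and 23245 in the WT PN5 libraries. Dividing by it can remove shared spread from members but add spread to other genes. Without the divisor 16.1% of all tested genes lay above at PN5 and 24% below. WT replicate 1 was the lowest of the WT libraries for all 6 of the higher mRNAs and the highest for mt-Co2. The size of these mean differences thus depends in part on that library. WT replicates 2 and 3 also lay outside the KO range in each of these genes. This follows from the lack of overlap of all 3 and is no separate check.

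Among nuclear genes with roles in the organelle, GV oocytes gave no call in KO against WT in any of the 6 lists. At MII Ndufa1 and Uqcr11, subunits of complexes I and III, and Nfe2l2, the transcription factor NRF2, were lower in KO. The number of calls at MII depends on single libraries. Over all tested genes 171 passed as lower, and 3 to 11 without any one WT library. Without KO replicate 1, 2 or 3 it was 2328, 75 or 13. Uqcr11 was low, at 0.552 ± 0.137 FPKM in KO and 4.38 ± 1.61 FPKM in WT. Ndufa1 had 3.91 ± 0.984 FPKM in KO, against 19.8 ± 5.02 FPKM in WT (log2 -2.07, SE 0.24, adjusted p = 0.0127 by limma). The nuclear subunits had medians of -0.03 (complex I, 23 tested) and 0.21 (complexes III to V, 26 tested) while the mitochondrially encoded subunits had 0.65.

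At PN5 and at the 2-cell stage nuclear subunits lay lower in KO. At PN5 3 of 25 complex I and 6 of 27 complex III to V subunits passed as lower and none as higher, where 5.53% of all tested genes were called lower. The PN5 calls of nuclear genes given here depend on single libraries. Over all tested genes 524 passed as lower and 54 as higher. Without WT replicate 2 or any one KO replicate, 1 or 2 genes passed as lower and 0 as higher. With the replicate block 1 gene passed as lower and 0 as higher. Their medians were -0.65 and -0.75, beside -0.57 for the mitochondrial mRNAs. Ndufa4, a subunit of complex IV, had 9.26 ± 0.973 FPKM in KO, against 27.7 ± 6.41 FPKM in WT (log2 -1.47, adjusted p = 0.0339 by limma). Slc25a33, a mitochondrial pyrimidine nucleotide carrier, was the single nuclear member of the 6 lists that passed as higher, with 7.08 ± 1.23 FPKM in KO and 2.75 ± 1.06 FPKM in WT. At the 2-cell stage 18 of 34 complex I subunits passed as lower and 3 as higher (median -0.88), and 21 of 33 subunits of complexes III to V as lower and 1 as higher (median -0.996), where 40.3% of all tested genes were called lower. Uqcrfs1, the Rieske iron-sulfur protein of complex III, had 6.79 ± 0.329 FPKM in KO, against 37.9 ± 12.5 FPKM in WT (log2 -2.27, SE 0.27), while its mitochondrial partner mt-Cytb had log2 -0.35. Ndufa9, of complex I, had 7.04 ± 2.05 FPKM in KO, against 47.7 ± 7.95 FPKM in WT (log2 -2.62, SE 0.26).

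Genes that copy and transcribe the mitochondrial genome mostly passed as lower in KO 2-cell embryos, where 40.3% of all tested genes were called lower, and for RNA processing the share was close to that of all genes. Of 12 tested genes of mtDNA replication and the nucleoid 10 passed as lower and 1 as higher (median -1.14). The single-stranded DNA binding protein gene Ssbp1 had 2.79 ± 0.331 FPKM in KO, against 9.30 ± 0.632 FPKM in WT (log2 -1.44, SE 0.21), and Dguok, which makes nucleotides for mtDNA, was higher, at 20.1 ± 4.67 FPKM in KO and 4.44 ± 1.34 FPKM in WT. Of 8 tested transcription genes 6 passed as lower and none as higher (median -0.996). Tfb2m, the initiation factor of POLRMT, had 12.5 ± 1.88 FPKM in KO, against 30.8 ± 3.36 FPKM in WT (log2 -1.24, SE 0.21). Tefm, the elongation factor, had 5.57, 1.65 and 2.12 FPKM in KO, against 13.1, 12.1 and 14.5 FPKM in WT. Of 22 tested genes of RNA processing, stability and decay 10 passed as lower and 3 as higher (median -0.63), with Trmt10c, a subunit of mitochondrial RNase P, at 7.84 ± 2.82 FPKM in KO and 36.0 ± 4.83 FPKM in WT. Mtpap, the mitochondrial poly(A) polymerase, was higher, at 22.5, 24.2 and 25.4 FPKM in KO and 7.87, 8.70 and 8.99 FPKM in WT (log2 1.39, SE 0.19, adjusted p = 0.000717 by limma). Of 6 tested nuclear regulators 5 passed as lower and none as higher (median -1.68), among them Gabpa at 22.9 ± 5.51 FPKM in KO and 112 ± 24.8 FPKM in WT. The blood and the granulosa and cumulus cell lists, which summed lower in these KO embryos, are given with the data above. So are Cyp19a1 and the sperm list, which went the other way. The part of these markers was not tested.

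**Figure D5:**
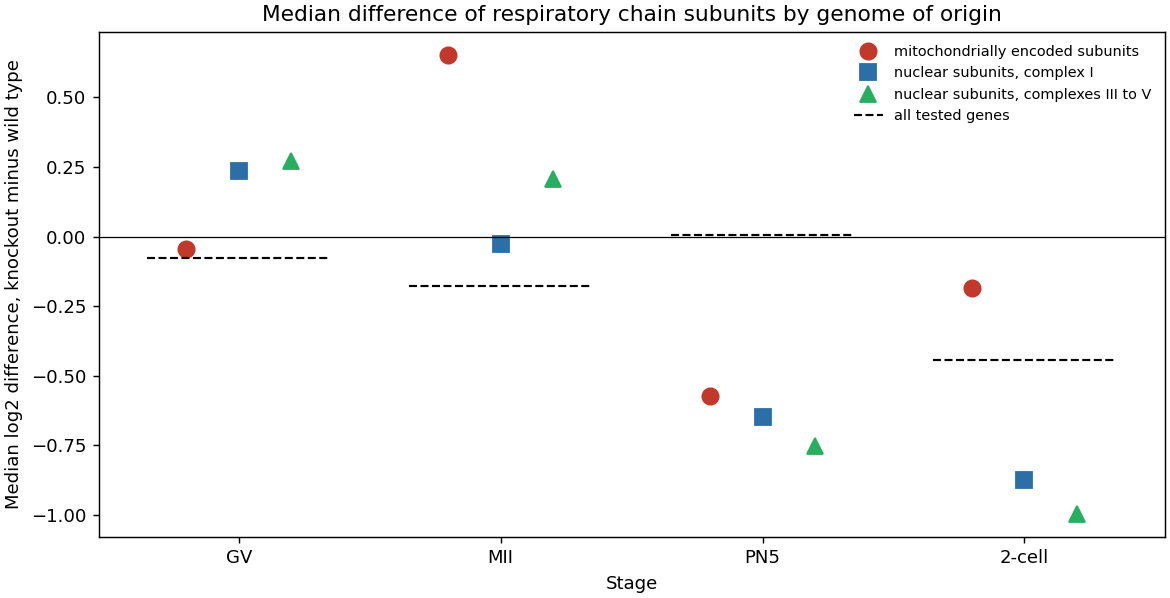
Median log2 difference KO minus WT of respiratory chain subunits by the genome that encodes them, at each stage, with the median of all tested genes as a dashed line. Mitochondrially encoded subunits are at 0.65 at MII and -0.18 at 2-cell, where nuclear subunits of complex I and of complexes III to V are at -0.88 and -0.996.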

How the data were processed

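FPKM per gene (fragments scaled to gene length and library size) were deposited by the authors for 24 libraries, and StringTie and GRCm38 are named in the submitters' processing notes. The aligner, versions, strand and the handling of fragments with several matches are not given in the sources used here. Gene IDs were matched to GENCODE M21, 55227 of 55487. Tests took genes that reached 1 FPKM in 3 or more libraries of the fit, and ran on log2(FPKM + 1), a scale that understates changes of low genes, with limma 3.58.1 (R 4.3.3; trend and robust settings), Benjamini-Hochberg adjustment over all tested genes and a threshold of 0.05. All 37 members entered each of 13 fits.

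Implied fragments were recovered from FPKM steps (98.8 to 99.2% whole within 0.02, over 34257 genes with 1 transcript and multiples up to 30) and used as description only, since genes with several transcripts did not give whole fragments. No count model was therefore run. Nuclear copies were found with blastn 2.17.0, and tables and plots were made in Python 3.11.15.

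Values per library are given for called members (the 6 with the smallest p, others added after their values were seen), mt-Nd1, mt-Nd4, mt-Nd6, mt-Co1, mt-Cytb, mt-Atp6, both rRNAs and the 2 highest tRNAs, and for up to 4 called genes per nuclear list. The members and lists were chosen with earlier results of these data known. Alternatives changed the pseudocount, filter, scaling, length trend, limma settings, pooling of libraries, replicate block and single libraries. The limma script was tested on simulated data.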

Additional observations from a re-analysis of the deposited data

Results flagged for a closer look

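mt-Tl2 was the single member with a called interaction of genotype with stage, at log2 -0.98 (SE 0.36, adjusted p = 0.0401 by limma) for the step from PN5 to the 2-cell embryo.

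For 8 members all KO libraries lay on one side of all WT libraries at an earlier stage and on the other side at a later one. Between MII and the 2-cell stage the log2 differences of KO against WT were 0.38 and -0.37 for mt-Rnr2, 0.43 and -0.54 for mt-Nd3, 0.57 and -0.37 for mt-Nd5, 0.58 and -0.64 for mt-Nd6, 0.77 and -0.84 for mt-Te, and 0.58 and -0.35 for mt-Cytb. mt-Tr had 0.71 at GV and -0.65 at the 2-cell stage. The differences between these stages were not tested. The GV value of mt-Tr rests on 5, 5 and 9 fragments in KO and 4, 5 and 3 in WT. Replicate 2 had 5 fragments in both genotypes, at 6.41 FPKM in KO and 6.37 FPKM in WT. The order of these 2 libraries thus rests on the scaling to library size. Of all genes tested at both stages, 2.57% lay above at MII and below at the 2-cell stage, 4.27% above at GV and below at the 2-cell stage, and 2.54% above at MII and below at PN5. mt-Ts1 had 0.78 at MII and -0.80 at PN5, and its interaction over that step did not pass (log2 -1.58, adjusted p = 0.0519 by limma).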

How the results depend on the processing

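Counts of called members in the GV-to-MII steps, in KO against WT at GV and in the GV-to-MII interaction kept within 1.5 times under every alternative that used all libraries. For KO against WT at MII the 2 calls became 0 with a pseudocount of 0.1, no filter, TPM, no trend or robust setting, the replicate block or all 24 libraries in 1 fit, and 1 with median-of-ratios. At PN5 the 1 lower call became 0 with a pseudocount of 0.1, no filter, median-of-ratios, TPM, an equal sum outside the mitochondrial genome or the replicate block, 2 with all 24 libraries, and 3 higher with the length trend removed. At 2-cell the 5 lower calls became 2 with no filter or all 24 libraries, 9 with TPM, 10 with the equal sum, and 2 higher with median-of-ratios. For WT PN5 against MII the 0 calls became 1 with the length trend removed and 7 with the replicate block. For KO PN5 against MII the 6 became 0 with no filter and 11 with the length trend removed. For WT 2-cell against PN5 the 19 became 11 with no filter and 9 with median-of-ratios. For KO 2-cell against PN5 the 35 became 23 with TPM and 29 with the length trend removed, 17 of them lower. For the MII-to-PN5 interaction the 0 became 4 with a mean of at least 5 FPKM and 1 with median-of-ratios or the length trend removed. For the PN5-to-2-cell interaction the 1 became 0 with no filter or median-of-ratios, 4 with the length trend removed, 2 with the replicate block, and 5 higher without WT PN5 replicate 3. The cause of these shifts was not tested. Leaving out 1 library gave 0 to 11 calls for KO against WT at GV, 0 to 18 at MII, 0 to 13 at PN5 and 1 to 8 at 2-cell, 35 to 36 for MII against GV in each genotype, 0 to 24 in WT and 0 to 7 in KO for PN5 against MII, 9 to 29 in WT and 32 to 35 in KO for 2-cell against PN5, and 0 to 9, 0 to 22 and 0 to 5 for the interactions in stage order. The correlation of deviations between libraries with the same replicate number ran from -0.397 to 0.516 and was over 0.1 for all 3 numbers in no comparison, so the numbers were not taken as pairs. Adding nuclear copies to their members, chosen after seeing the data, changed no count beyond 1.5 times, but could change the differences little. Depth limits the tRNAs most.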
